A study of Mus musculus with 39 samples.

Results

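The genes described here are the 9 that make, store, take back and break down catecholamines, chosen by symbol from a counts table of 20333 mouse transcripts, 1 per gene. They are Th, Ddc, Dbh, Pnmt, Gch1, Slc18a1, Slc18a2, Slc6a2 and Maoa, and all 9 had enough counts to be tested in both assays. Tumors came from TH-MYCN mice, in which a MYCN transgene driven by the tyrosine hydroxylase promoter gives rise to neuroblastoma, and every group carries that transgene. The combination mice received difluoromethylornithine (DFMO), an inhibitor of the polyamine enzyme ornithine decarboxylase, together with a diet without proline and arginine. The DFMO mice received the drug on the control diet, the diet mice the proline- and arginine-free food without drug, and the control mice the defined control diet alone. Ribosome footprints were sequenced from 5 mice in each of the 4 groups and total RNA from the same extracts of 19 of the 20 mice (4 controls). Each library is a different animal within its assay, so p-values measure the spread between mice. Mice are called by the number in their label after PD (combination), D (DFMO), P (diet) or C (control). The labels used here give no age, sex or batch.

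Catecholamines are made from tyrosine. Tyrosine hydroxylase carries out the first and rate-limiting step with tetrahydrobiopterin as cofactor, aromatic L-amino acid decarboxylase turns the product into dopamine, dopamine beta-hydroxylase makes noradrenaline inside vesicles, and in adrenaline-producing cells a methyltransferase makes adrenaline. Vesicular monoamine transporters load the amines into granules, a plasma membrane transporter takes noradrenaline back, and monoamine oxidase degrades what stays in the cytosol. Neuroblastoma arises from sympathetic precursors that use this pathway, and its products are measured in patients as markers of the disease.

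In the GRCm38 assembly, as annotated by GENCODE M21, Th (tyrosine hydroxylase) lies on chr7:142892752-142900014 on the minus strand, with 13 exons in the counted transcript. Ddc (the decarboxylase) lies on chr11:11814101-11898144 on the minus strand with 15 exons. Gch1 (GTP cyclohydrolase, the entry enzyme of tetrahydrobiopterin synthesis) lies on chr14:47153895-47189413 on the minus strand with 6 exons. Dbh (the beta-hydroxylase) has 12 exons on chr2:27165233-27183200, and Pnmt (the methyltransferase) has 3 exons on chr11:98386450-98388181, both on the plus strand. The vesicular transporters are Slc18a1 (VMAT1) with 17 exons on chr8:69037711-69089222, minus strand, and Slc18a2 (VMAT2) with 16 exons on chr19:59260896-59296012, plus strand. Slc6a2, the noradrenaline transporter, has 15 exons on chr8:92960079-93001667, and Maoa, monoamine oxidase A, has 15 exons on chrX:16619698-16687818, both on the plus strand. Coding exons of Slc18a2 overlap the antisense gene Gm29261, which has no entry in the counts table. Whether reads were counted by strand is not given in the sources used here, so reads of Slc18a2 and of this antisense gene cannot be told apart.

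The 250 bases before a RefSeq start (GRCm38.p6) are shown for the 3 synthesis genes on which the results turn, for Ddc before the one of its 2 RefSeq starts that matches the counted transcript. RefSeq windows matched 6 of the 9 genes. Each is printed 5′ to 3′ on the strand of the gene, from chr7:142899996-142900245 for Th, chr11:11898145-11898394 for Ddc and chr14:47189414-47189663 for Gch1, all minus strand. Capitals mark 3 motifs searched on both strands, namely CACGTG (an E-box bound by MYC proteins), TGACGTCA (the cAMP response element) and ATTA, which reads TAAT on the other strand (a homeodomain core).
Th: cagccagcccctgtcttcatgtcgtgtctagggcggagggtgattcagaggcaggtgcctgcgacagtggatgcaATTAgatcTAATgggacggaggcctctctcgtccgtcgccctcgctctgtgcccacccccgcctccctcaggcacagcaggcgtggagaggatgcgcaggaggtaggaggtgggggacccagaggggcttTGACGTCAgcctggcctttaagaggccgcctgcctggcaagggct
Ddc: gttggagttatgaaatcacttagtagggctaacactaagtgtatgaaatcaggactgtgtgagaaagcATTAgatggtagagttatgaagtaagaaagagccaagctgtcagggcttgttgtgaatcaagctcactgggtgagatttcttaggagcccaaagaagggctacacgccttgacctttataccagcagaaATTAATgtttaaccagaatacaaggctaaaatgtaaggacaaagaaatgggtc
Gch1: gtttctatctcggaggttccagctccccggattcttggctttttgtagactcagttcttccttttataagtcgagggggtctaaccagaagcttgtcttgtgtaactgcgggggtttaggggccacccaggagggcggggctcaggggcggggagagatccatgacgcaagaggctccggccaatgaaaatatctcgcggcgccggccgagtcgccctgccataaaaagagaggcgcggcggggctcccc
The Th window holds TGACGTCA once and ATTA 2 times, and its last bases lie within the first exon of the counted transcript. The Ddc window shown holds ATTA 3 times, of which 2 overlap on opposite strands in ATTAAT. The window before the other RefSeq start of Ddc, chr11:11890409-11890658, holds ATTA 2 times and is not printed. Which of the 2 starts these tumors use was not tested. The Gch1 window holds none of the motifs, and CACGTG occurs in none of the 3 windows. Among 19443 such windows of 15898 genes of the table, TGACGTCA occurs in 2.06%, CACGTG in 6.96% and ATTA in 48.0%. A match is a run of letters and was not tested as a binding site.

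Footprint libraries held 2.14 to 12.4 M counts, with the control libraries the shallowest (3.10 ± 0.940 M, SD, n = 5), and RNA libraries held 10.0 to 51.5 M. The labels call the cells neuroblasts, and all 8 neuroblast markers examined had footprints in each of the 20 footprint libraries, among them Mycn at 260 to 406 CPM (counts per M, scaled to TMM-adjusted totals). In footprints of the combination against control, 4 of those 8 were lower, beside 15.5% of all genes tested that were lower, among them Insm1 (-1.07) and Mycn (-0.27, log2 changes). The RNA libraries of diet mouse P5828 and control mice C5696, C5778, C5781 detected 8806 to 13387 transcripts, against at least 14977 in the other 15, which leaves mouse C5812 as the only control RNA library outside this set. RNA of combination mouse PD5732 and of DFMO mice D5823 and D135 correlated with the footprints of its own mouse at r = 0.18, -0.07 and -0.03 across genes, after centring each gene, and ranked these footprints 5, 10 and 8 of 20. RNA of C5696 and C5781 matched no better (r = 0.12 and 0.08, ranks 9 and 8), and these libraries are left out with the low-complexity set and kept where only the 3 others are left out. RNA results are therefore given with and without these libraries. In fits without the low-complexity libraries the lone control RNA library is assumed to vary like the other groups. Footprints of DFMO mice D5747 and D5802 had the highest summed markers of Schwann cells (104 and 46.8 CPM, against 2.49 to 4.58 CPM in controls, where S100b was at 0). They also had the highest summed markers of cholinergic neurons (137 and 41.8 CPM, against 0 to 1.48 CPM in controls, where Chat, Slc5a7 and Vip were at 0). In bulk tumors, fewer cells of a type and less RNA per cell cannot be told apart.

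**Figure D1:**
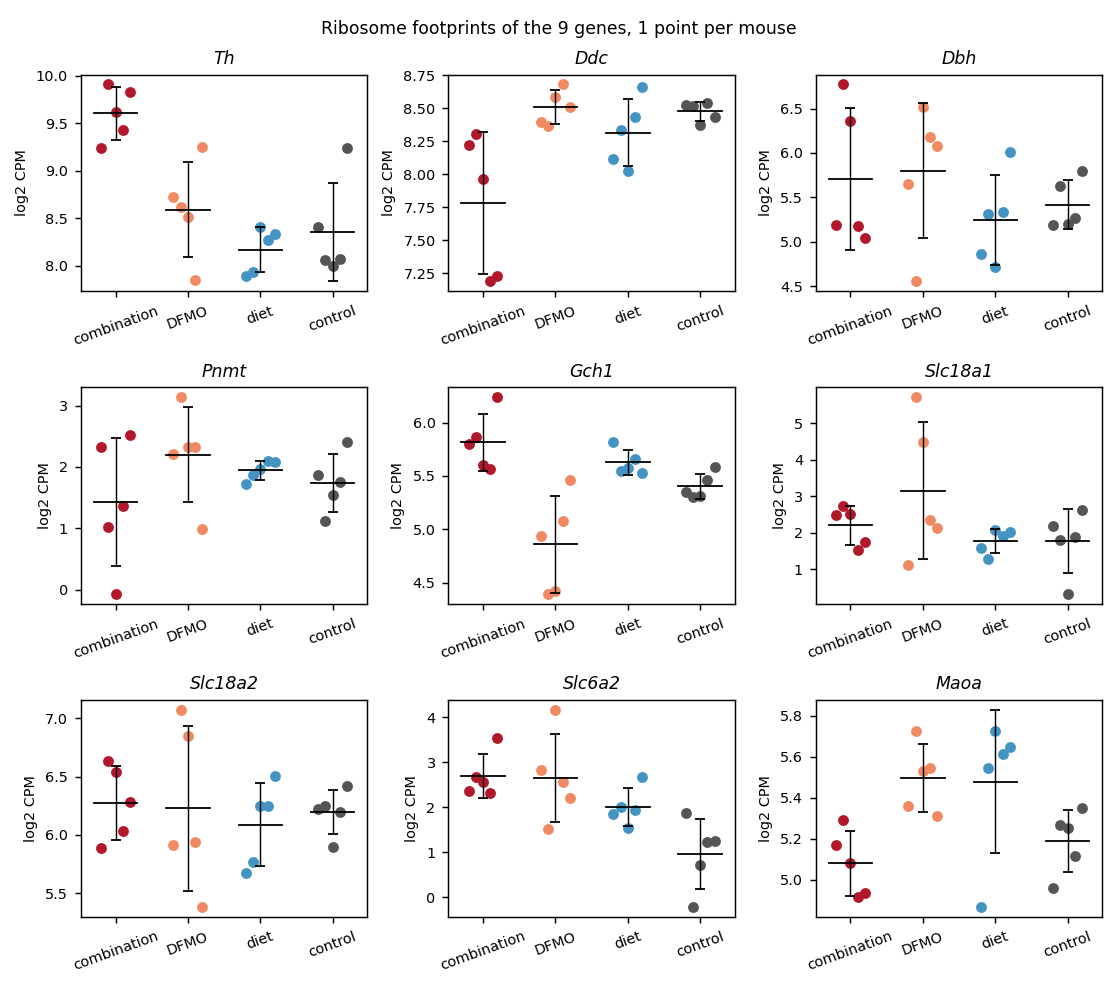
Ribosome footprints of the 9 genes in each mouse, as log2 CPM (vertical axes differ between panels). Points are mice, bars are the mean ± SD of 5 mice, and groups run from combination to control. By group mean, Th lies highest and Ddc lowest in combination tumors. Slc18a1 is spread from 2.15 to 52.6 CPM in DFMO tumors.

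Per coding length, as RPKM deposited by the authors, Th footprints stood highest in combination tumors at 558 ± 117 RPKM, followed by Ddc at 167 ± 49.9 RPKM with no overlap between the 2 genes (SD, n = 5). In DFMO tumors Th and Ddc overlapped, at 272 ± 81.7 and 256 ± 24.6 RPKM. They overlapped likewise in diet tumors, where Ddc had 207 ± 36.0 and Th 180 ± 26.2 RPKM. In control tumors Ddc had 248 ± 16.1 and Th 234 ± 101 RPKM, again overlapping. Gch1 and Slc18a2 came next by mean, at 82.7 and 53.6 RPKM in combination tumors and 58.7 and 47.9 RPKM in control tumors, apart in the combination and overlapping in control. Slc18a2 overlapped Dbh in combination tumors. In DFMO tumors Slc18a2 (56.0 RPKM) stood above Gch1 (41.3 RPKM) by mean, and Slc18a2, Gch1, Dbh and Maoa each overlapped the next. Dbh and Maoa followed at 33.3 and 22.5 RPKM in combination tumors and 23.4 and 23.3 RPKM in control tumors, overlapping each other in both groups. Pnmt, Slc18a1 and Slc6a2 had the lowest means in each of the 4 groups, although the DFMO range of Slc18a1 (1.34 to 39.5 RPKM) reached past that of Maoa. The last gene of the order was Slc18a1 in combination and diet tumors (3.21 and 2.06 RPKM) and Slc6a2 in DFMO and control tumors (4.20 and 1.19 RPKM), in each case overlapping its neighbour.

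In footprints of the combination against control, Th, Gch1 and Slc6a2 rose and Ddc fell, while Dbh, Pnmt, Slc18a1, Slc18a2 and Maoa did not pass the test (edgeR quasi-likelihood test, adjusted p under 0.05 over all genes tested). The 4 of 9 called stand beside 32.2% of the 12095 genes tested (16.7% higher and 15.5% lower), and the median log2 change was 0.34 for the 9 genes and 0.02 for all genes. Under DFMO alone against control, Slc6a2 and Slc18a1 rose and Gch1 fell in footprints, 3 of 9 beside 18.1% of all genes (9.24% higher and 8.84% lower), with medians of 0.30 and 0.02. Under the diet alone none of the 9 passed in footprints in edgeR, beside 0% of all genes, although 2 of the 9 (Maoa and Slc6a2) had an unadjusted p under 0.05. DESeq2 called none of the 9 there either. Against DFMO alone, the combination raised Th and Gch1 and lowered Ddc in footprints, 3 of 9 beside 3.22% of all genes (2.27% higher and 0.951% lower), with medians of -0.15 and -0.01. Against the diet alone, it raised Th and lowered Ddc and Maoa, 3 of 9 beside 28.8% of all genes (14.8% higher and 14.0% lower), with medians of 0.20 and 0.01. Comparisons with control share the control mice.

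In RNA, 4 genes were higher in the combination than in control (Th, Dbh, Slc18a1 and Slc6a2) and none lower, beside 40.8% of the 14280 genes tested (23.1% higher and 17.7% lower), and the median log2 change was 0.28 for the 9 genes and 0.31 for all genes. Under DFMO alone, Th, Ddc, Dbh, Slc18a1, Slc18a2 and Slc6a2 were higher and Gch1 lower in RNA, 7 of 9 beside 39.5% of all genes (21.9% higher and 17.5% lower), with medians of 1.02 and 0.28. Under the diet alone none passed in RNA in edgeR, beside 3.40% of all genes, with medians of 0.24 and 0.23; 1 gene, Slc18a1, had an unadjusted p under 0.05 and was called by DESeq2 (adjusted p = 0.0256). Combination against DFMO gave 4 calls (Th and Gch1 higher, Ddc and Slc18a1 lower) beside 5.13% of all genes (3.07% higher and 2.07% lower), with medians of -0.68 and 0.02. Combination against diet gave 3 (Th and Slc6a2 higher, Ddc lower) beside 17.7% (9.03% higher and 8.68% lower), with medians of 0.26 and 0.01. The RNA changes against control ride on the shift of all genes just given, which RLE scaling moved to 0.48 in the combination, 0.41 under DFMO and 0.28 under the diet. Without the low-complexity RNA libraries 1 of the 9 was called in the combination and 2 under DFMO against control, beside 15.6% and 15.0% of all genes in those fits. Without the RNA unlike its own footprints 2 and 3 were called, beside 28.0% and 18.0%.

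**Figure D2:**
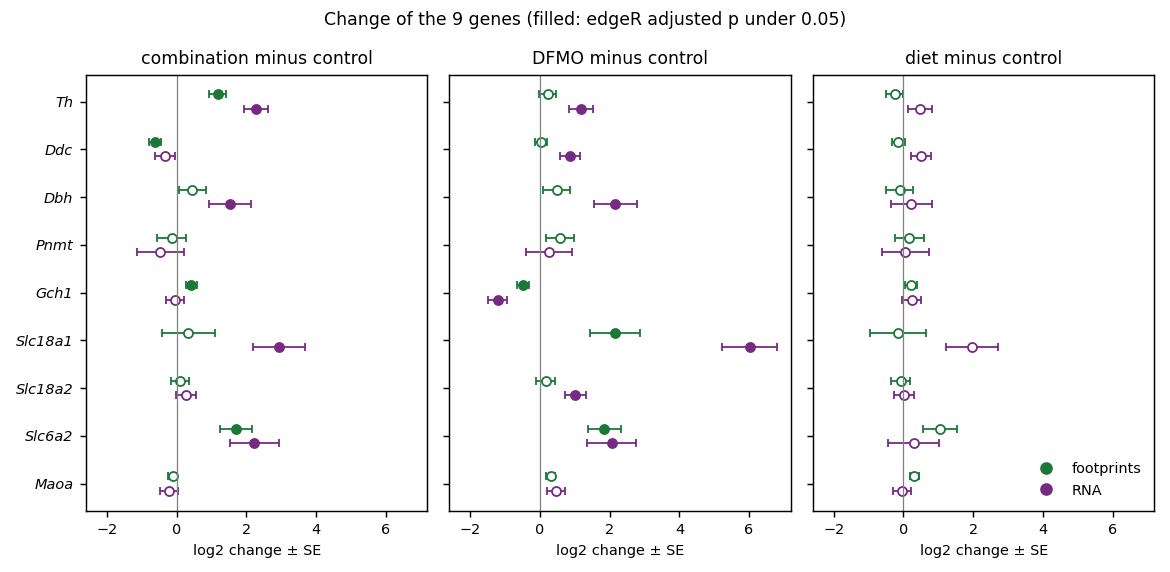
Log2 change ± SE of the 9 genes against control in the combination (left), under DFMO (middle) and under the diet (right), for footprints and RNA; filled points have an edgeR adjusted p under 0.05. Th is filled in both assays in the combination, Slc18a1 RNA under DFMO lies farthest from 0 at 6.01, and no point is filled under the diet.

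Th, the rate-limiting enzyme, had 604, 961, 789, 688 and 912 CPM of footprints in combination mice PD5732, PD5736, PD5746, PD5805 and PD5825. DFMO mice D5747, D5802, D5806, D5823 and D135 had 393, 366, 231, 607 and 424 CPM. Diet mice P5702, P5705, P5784, P5785 and P5828 had 239, 245, 340, 310 and 324 CPM. Control mice C5696, C5778, C5781, C5812 and C5840 had 341, 268, 256, 269 and 604 CPM. The combination libraries lay above all diet libraries, and above all controls only by the margin between 604.1 CPM in mouse PD5732 and 603.6 CPM in control mouse C5840, which stood apart from the other 4 controls. They overlapped the DFMO libraries, with mouse D5823 at 607.3 CPM above mouse PD5732. Th footprints rose by 1.19 ± 0.24 on the log2 scale in the combination against control (2.27-fold, edgeR adjusted p = 0.00121). The same gene rose by 1.44 ± 0.24 against the diet (adjusted p = 0.000413, edgeR) and by 0.97 ± 0.24 against DFMO (adjusted p = 0.032, edgeR). The first 2 calls held in each of 26 refits, with log2 changes of 1.09 to 1.48 against control. The call against DFMO held in 17 of 26 and was lost without 8 single mice (D135, PD5736, PD5746, D5747, D5802, PD5805, D5806 or PD5825, adjusted p up to 0.0935) and without mice D5747 and D5802 together (0.90, adjusted p = 0.082, edgeR). Under DFMO alone Th footprints differed from control by 0.22 ± 0.24 (adjusted p = 0.561, edgeR), and under the diet by -0.25 ± 0.24 (adjusted p = 0.768, edgeR).

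Th RNA had 1113, 1151, 754, 890 and 1348 CPM in combination mice PD5732, PD5736, PD5746, PD5805 and PD5825. The 5 DFMO mice had 386 to 589 CPM and the 5 diet mice 194 to 431 CPM. Control mice C5696, C5778, C5781 and C5812 had 276, 242, 65.0 and 280 CPM. Every combination library lay above every library of the other groups. Th RNA rose by 2.28 ± 0.35 in the combination against control (4.86-fold, edgeR adjusted p = 0.000193), and by 1.89 ± 0.38 without the low-complexity libraries (adjusted p = 0.00462, edgeR). Without both sets of doubted libraries the change was 1.87 (adjusted p = 0.0245, edgeR). It rose by 1.81 ± 0.32 against the diet (adjusted p = 0.000752, edgeR). Against DFMO it rose by 1.10 ± 0.31 (adjusted p = 0.0436, edgeR), a call kept without the low-complexity libraries (adjusted p = 0.000579) and lost without the RNA unlike its own footprints (adjusted p = 0.419), with no filter and in limma. Of fits without 1 mouse it held only without P5705, PD5746, C5781, P5784, C5812 or P5828. The same call was kept without both sets of doubted libraries. The DFMO increase of 1.18 ± 0.34 against control (adjusted p = 0.0102, edgeR) was 0.80 without the low-complexity libraries, no longer past the test (adjusted p = 0.125, edgeR), and it also missed the test without the RNA unlike its own footprints (adjusted p = 0.0598).

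Ddc, the decarboxylase of the second step, had 298, 317, 250, 146 and 150 CPM of footprints in combination mice PD5732, PD5736, PD5746, PD5805 and PD5825. DFMO libraries had 330, 385, 410, 365 and 336 CPM in mice D5747, D5802, D5806, D5823 and D135. Diet libraries had 278, 323, 260, 345 and 405 CPM in mice P5702, P5705, P5784, P5785 and P5828. Control libraries had 368, 366, 331, 371 and 345 CPM in mice C5696, C5778, C5781, C5812 and C5840. All 5 combination libraries were below all DFMO and all control libraries, with mice PD5805 and PD5825 lowest, and they overlapped the diet libraries. Ddc footprints fell by 0.62 ± 0.17 in the combination against control (1.53-fold lower, edgeR adjusted p = 0.00961), a call kept in all 26 refits. Against DFMO they fell by 0.65 ± 0.17 (adjusted p = 0.0394, edgeR), a call kept in 18 of 26 refits and lost without mouse D135, PD5746, D5802, PD5805, D5806, D5823 or PD5825 or in thinned libraries. Against the diet they fell by 0.47 ± 0.17 (adjusted p = 0.0435, edgeR), a call kept in 14 of 26. It was lost without mouse C5696, P5705, PD5746, C5778, P5785, PD5805, PD5825 or P5828, without D5747 and D5802 together, with no filter, in limma and in thinned libraries. Neither single treatment passed the test for Ddc footprints, with 0.04 ± 0.17 under DFMO (adjusted p = 0.915) and -0.14 ± 0.17 under the diet (adjusted p = 0.837, both edgeR).

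Ddc RNA had 77.0, 204, 164, 68.6 and 102 CPM in combination mice PD5732, PD5736, PD5746, PD5805 and PD5825. The DFMO libraries had 243 to 334 CPM, the diet libraries 202 to 268 CPM and the 4 control libraries 153, 136, 104 and 231 CPM. Combination libraries were below all DFMO libraries and overlapped the diet and control libraries. Ddc RNA fell by 1.20 ± 0.27 in the combination against DFMO (edgeR adjusted p = 0.0101). This call was kept without the low-complexity libraries (-1.21) and without both doubted sets. Leaving out only the RNA unlike its own footprints lost it (-1.10, adjusted p = 0.212, edgeR). Ddc RNA fell by 0.85 ± 0.27 against the diet (adjusted p = 0.0343, edgeR). This call was lost with RLE scaling, with limma and without mouse P5702, PD5732, P5785, PD5805, PD5825 or P5828. It was also lost without the RNA unlike its own footprints and without both doubted sets. Against control Ddc RNA differed by -0.34 ± 0.29 in the combination (adjusted p = 0.346, edgeR). Under DFMO it was 0.86 ± 0.29 higher than control (adjusted p = 0.0242, edgeR), and 0.29 higher without the low-complexity libraries, where the call was lost. The DFMO call was also lost without the RNA unlike its own footprints, without both doubted sets and without C5696, C5778 or C5781 alone. The difference of the combination from the sum of the single changes was -1.71 ± 0.40 in RNA (edgeR adjusted p = 0.0183), where 2 of the 9 genes were called beside 5.94% of all genes (2.44% higher and 3.50% lower). With the low-complexity libraries left out the Ddc difference was -1.07 and no longer called. The call was also lost without the RNA unlike its own footprints and without both doubted sets.

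Because both enzymes are read in the same library, the ratio of Th to Ddc does not depend on scaling between libraries. Per coding length, the footprint ratio ran from 1.96 to 5.86 in combination mice (median 3.04) and from 0.543 to 1.61 in DFMO mice. It ran from 0.731 to 1.26 in diet mice and from 0.698 to 1.69 in control mice. All 5 combination mice stood above all 15 others. In RNA the ratio was 4.44 to 13.9 in combination mice, 1.29 to 1.88 in DFMO mice, 0.700 to 2.05 in diet mice and 0.604 to 1.74 in control mice, again with no overlap. The ratio was chosen after both genes had been seen to move and is given without a test.

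**Figure D3:**
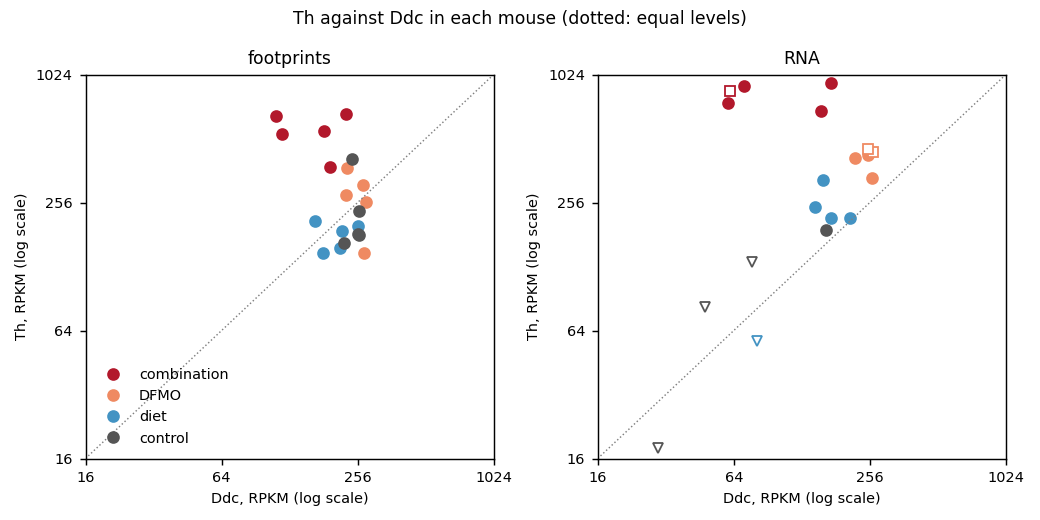
Th against Ddc in each mouse, in RPKM on log axes, for footprints (left) and RNA (right); the dotted line marks equal levels, and in RNA open triangles are low-complexity libraries and open squares libraries unlike their own footprints. All combination mice lie above the line at footprint ratios of 1.96 to 5.86.

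Gch1 supplies the cofactor of tyrosine hydroxylase. Its footprints were 55.5, 58.2, 48.6, 47.4 and 75.4 CPM in combination mice PD5732, PD5736, PD5746, PD5805 and PD5825. They were 21.0, 21.5, 33.7, 44.1 and 30.8 CPM in DFMO mice D5747, D5802, D5806, D5823 and D135. Combination libraries lay above all DFMO libraries, and D5823 was the only DFMO library within the range of the 5 control libraries, 39.5 to 47.9 CPM. The diet libraries had 46.1 to 56.5 CPM. Gch1 footprints rose by 0.91 ± 0.16 in the combination against DFMO (1.88-fold, edgeR adjusted p = 0.00584), a call kept in all 26 refits and at 0.65 without mice D5747 and D5802 (adjusted p = 0.0124). Against control they fell by 0.49 ± 0.17 under DFMO (adjusted p = 0.0431, edgeR) and rose by 0.42 ± 0.16 in the combination (adjusted p = 0.0494, edgeR). These calls were kept in 12 and 9 of 26 refits, and without mice D5747 and D5802 the DFMO change was -0.23 (adjusted p = 0.324) and that of the combination 0.42 (adjusted p = 0.0119, edgeR). Leaving out 1 mouse gave changes of -0.66 to -0.38 and 0.31 to 0.48. The DFMO call held only without P5702, PD5732, PD5746, P5784, PD5805, D5806, D5823 or PD5825, and that of the combination only without PD5746, D5747, D5802, PD5805 or D5823.

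Gch1 RNA was low in all 5 DFMO libraries, at 19.1 to 21.7 CPM, against 32.9 to 72.3 CPM in the 4 control libraries. The combination libraries had 25.7 to 70.9 CPM and the diet libraries 46.0 to 69.7 CPM, so no DFMO library overlapped any other group. Gch1 RNA fell by 1.22 ± 0.26 under DFMO against control (edgeR adjusted p = 0.00191), and by 0.96 without the low-complexity libraries (adjusted p = 0.038, edgeR). It was lost without both sets of doubted libraries (-0.93, adjusted p = 0.141) and in limma on log2 RPKM. In the combination it was 1.17 ± 0.25 higher than under DFMO (adjusted p = 0.00742, edgeR). This call was lost without the RNA unlike its own footprints (1.09, adjusted p = 0.237, edgeR) and kept without both doubted sets. Gch1 RNA of the combination differed by -0.05 ± 0.26 from control (adjusted p = 0.892, edgeR).

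The listed genes that make and recycle the cofactor besides Gch1 had 3 of 6 tested members higher and 0 lower in footprints of the combination against control, beside 16.7% of all genes higher and 15.5% lower. Pcbd1 and Pcbd2, pterin dehydratases, averaged 12.5 ± 4.16 and 4.16 ± 0.651 CPM in the combination and 6.40 ± 0.798 and 1.49 ± 0.770 CPM in control (SD, n = 5), with log2 changes of 0.95 ± 0.24 and 1.38 ± 0.36 (edgeR adjusted p = 0.00462 and 0.0057). Qdpr, which regenerates the cofactor, averaged 84.6 ± 34.1 CPM in the combination and 54.0 ± 10.3 CPM in control, a change of 0.64 ± 0.21 (adjusted p = 0.0257, edgeR). In RNA of the same comparison Qdpr rose by 1.47 ± 0.39 (adjusted p = 0.00587, edgeR) and Pcbd1 by 1.45 ± 0.36 (adjusted p = 0.00428, edgeR), on the all-gene shift of 0.31. Without the low-complexity libraries these were 0.76 (adjusted p = 0.148) and 1.07 (adjusted p = 0.0468), and without both doubted sets 0.67 and 1.01, neither past the test (adjusted p = 0.288 and 0.131). Of 4 genes for vitamin cofactors and granule electron supply, 2 were lower and 0 higher in footprints. The granule protein Cyb561, which passes electrons into granules for dopamine beta-hydroxylase, fell by 1.32 ± 0.24 (adjusted p = 0.000467, edgeR). The low-affinity amine transporter Slc29a4 fell by 1.09 ± 0.17 (adjusted p = 8.41e-05, edgeR). RNA of Cyb561 and Slc29a4 did not pass in this comparison (0.40 and 0.08, adjusted p = 0.626 and 0.926). Without the low-complexity libraries their RNA values were -0.89 (adjusted p = 0.0227) and -0.84 (adjusted p = 0.0507, edgeR). Over all 16 other pathway genes tested in footprints, 3 were higher and 3 lower in the combination, a share near the 32.2% of all genes, and 1 and 1 under DFMO, with 0 under the diet (2 at an unadjusted p under 0.05 in edgeR), and the medians were 0.12, -0.04 and -0.17. In RNA, 17 were tested, with 3 higher and 3 lower in the combination, 5 and 3 under DFMO and 0 under the diet (5 at an unadjusted p under 0.05).

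Dbh, which makes noradrenaline, varied widely within groups. Its footprints were 36.4, 109, 81.9, 36.2 and 33.0 CPM in combination mice PD5732, PD5736, PD5746, PD5805 and PD5825. In DFMO mice D5747, D5802, D5806, D5823 and D135 they were 23.5, 91.7, 72.6, 67.6 and 50.3 CPM. Diet libraries had 26.2 to 64.5 CPM and control libraries 36.6 to 55.6 CPM, and all 4 groups overlapped. The footprint change against control was 0.45 ± 0.38 in the combination (edgeR adjusted p = 0.388) and 0.47 ± 0.39 under DFMO (adjusted p = 0.415, edgeR). Dbh RNA had 22.8 to 133 CPM in the combination, 19.9 to 205 CPM under DFMO, at most 38.3 CPM under the diet and 3.89 to 37.1 CPM in control, with mouse D5747 lowest in the DFMO group in both assays. RNA was higher than control by 2.16 ± 0.61 under DFMO (adjusted p = 0.00986, edgeR) and by 1.53 ± 0.60 in the combination (adjusted p = 0.0459, edgeR). Without the low-complexity libraries these were 1.43 (adjusted p = 0.421) and 0.80 (adjusted p = 0.648), and the combination call held in 8 of 19 fits without 1 mouse (1.10 to 1.90), those without PD5732, D5747, P5784, D5802, PD5805, C5812, PD5825 or P5828.

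Pnmt, the adrenaline-forming enzyme and a marker of chromaffin cells, was among the lowest genes. Its footprints were 0.949 to 5.72 CPM in the combination, 1.97 to 8.79 CPM under DFMO, 3.31 to 4.26 CPM under the diet and 2.16 to 5.33 CPM in control, resting on 7 to 89 counts a library. No comparison called it in footprints or RNA in edgeR or DESeq2, while limma called its RNA higher under DFMO than in control (1.21, adjusted p = 0.033). Against control its footprint change was -0.14 ± 0.42 in the combination and 0.56 ± 0.40 under DFMO (edgeR adjusted p = 0.831 and 0.346). Summed footprints of 8 adrenal cortex markers, the neighbouring tissue of the medulla, ran from 72.3 to 226 CPM in the combination, 5.83 to 57.1 CPM under DFMO, 6.27 to 134 CPM under the diet and 13.8 to 118 CPM in control. Of 6 of these tested, 2 (Cyp11b1 and Hsd3b1) were higher in the combination than in control and 3 higher than under DFMO, none of the 8 was at 0 throughout a group, and their part in the results of Th, Ddc and Gch1 was not tested.

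**Figure D4:**
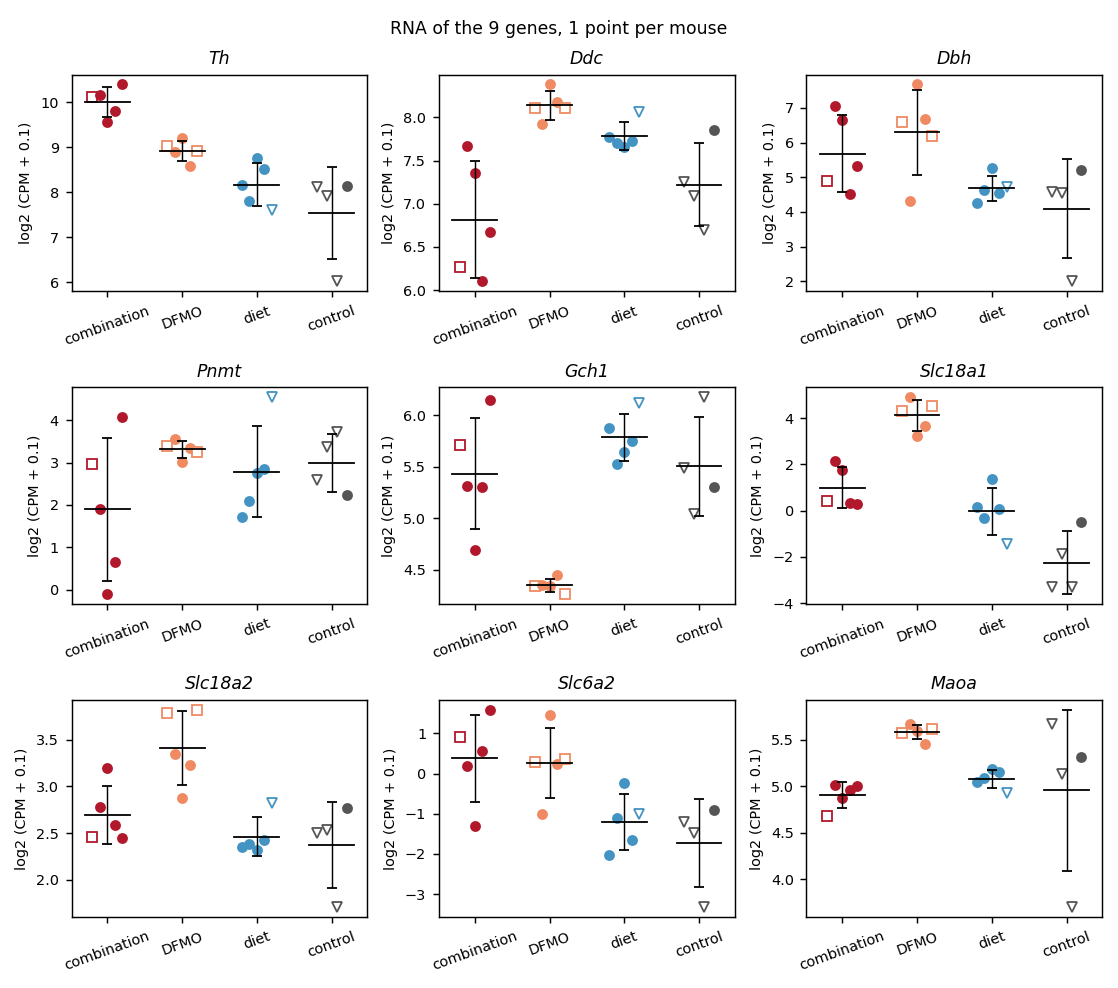
RNA of the 9 genes in each mouse, as log2 (CPM + 0.1), with mean ± SD of 5 mice (4 in control). Open triangles are the 4 low-complexity libraries and open squares the 3 unlike the footprints of their own mouse; 3 of the 4 control libraries are of the first kind, and Slc18a1 lies at 9.27 to 29.9 CPM in DFMO tumors and at 0 to 0.610 CPM in control tumors.

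Slc18a1, the vesicular transporter typical of endocrine cells, had the largest RNA change of the 9 genes. Its RNA was 1.23, 4.31, 3.31, 1.16 and 1.13 CPM in combination mice PD5732, PD5736, PD5746, PD5805 and PD5825. It was 29.9, 9.27, 12.7, 23.0 and 19.5 CPM in DFMO mice D5747, D5802, D5806, D5823 and D135. Diet libraries had 0.264 to 2.49 CPM, and control mice C5696, C5778, C5781 and C5812 had 0, 2, 0 and 21 counts, or 0 to 0.610 CPM. Every DFMO library stood above every other library, and the combination stood above control and overlapped the diet. Summed RNA of 8 Schwann markers was 36.4 to 108 CPM under DFMO, 4.02 to 8.75 CPM in the combination, 1.25 to 11.5 CPM under the diet and 3.48 to 15.6 CPM in control, where 2 of the 8 were at 0. That of 4 cholinergic markers was 24.3 to 99.2 CPM under DFMO, 1.79 to 16.5 CPM in the combination, 0 to 0.204 CPM under the diet and 0 to 0.414 CPM in control, where Slc5a7 and Vip were at 0. The part of these cells in the Slc18a1 RNA values was not tested. The rise under DFMO against control was 6.01 ± 0.79 (edgeR adjusted p = 5.68e-05), 4.94 ± 1.10 without the low-complexity libraries (adjusted p = 0.00922, edgeR) and 4.82 without both sets (adjusted p = 0.0414, edgeR). In the combination it was 2.94 ± 0.74 (adjusted p = 0.00435, edgeR), falling to 1.86 without the low-complexity libraries (adjusted p = 0.2). Without 1 mouse the DFMO change ran from 5.66 to 7.99 and that of the combination from 2.57 to 4.91, all past the test, on the few control counts just given. Combination against DFMO gave -3.08 ± 0.58 (adjusted p = 0.00226, edgeR). This call was lost without the RNA unlike its own footprints (-2.79, adjusted p = 0.113, edgeR) and kept without both doubted sets. The difference of the combination from the sum of the single changes was -5.05 ± 0.93 (adjusted p = 0.00564, edgeR). With the low-complexity libraries left out it was -4.17. The call was lost without the RNA unlike its own footprints (-4.80, adjusted p = 0.0828, edgeR) and without both doubted sets.

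Footprints of Slc18a1 split the DFMO group. They were 52.6 and 22.5 CPM in mice D5747 and D5802 and 5.13, 4.34 and 2.15 CPM in mice D5806, D5823 and D135. Combination libraries had 2.87 to 6.68 CPM, diet libraries 2.42 to 4.21 CPM and control libraries 1.24 to 6.21 CPM, so 3 of the 5 DFMO libraries overlapped the other groups. The footprint rise under DFMO was 2.16 ± 0.71 (edgeR adjusted p = 0.0444) and -0.01 ± 0.37 without mice D5747 and D5802 (adjusted p = 0.99), the mice with the highest Schwann and cholinergic marker sums. The part of those cells in the result was not tested. The call was kept in 3 of 20 fits without 1 mouse (D135, D5806 or D5823), where the change ran from 1.08 to 2.45. Mice D135 and D5823, low in footprints, had RNA at 19.5 and 23.0 CPM and are those whose RNA was unlike their own footprints.

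Slc18a2, the transporter of neurons, did not pass the test in footprints in any comparison. It had 59.3 to 99.1 CPM in the combination, 41.7 to 134 CPM under DFMO, 51.1 to 90.9 CPM under the diet and 59.7 to 85.5 CPM in control. DFMO mice D5747 and D5802 again had the highest values, 134 and 116 CPM. The footprint change against control was 0.10 ± 0.26 in the combination and 0.16 ± 0.26 under DFMO (edgeR adjusted p = 0.81 and 0.712), with 95% intervals of -0.42 to 0.61 and -0.35 to 0.67. Its RNA was 7.23 to 14.0 CPM under DFMO and 3.16 to 6.71 CPM in control, without overlap, a rise of 1.02 ± 0.30 (adjusted p = 0.0114, edgeR). With the low-complexity libraries left out this became 0.69 (adjusted p = 0.209). In the combination against DFMO the RNA change did not pass with all libraries, but was called at -0.75 without the low-complexity libraries (adjusted p = 0.0113), at -0.75 without C5781 alone (adjusted p = 0.0382, edgeR) and at -0.71 in DESeq2 (adjusted p = 0.0255). Over the 20 footprint libraries the 2 vesicular transporters correlated at Pearson r = 0.73, the highest among the 36 pairs of the 9 genes, with mice D5747 and D5802 high in both.

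**Figure D5:**
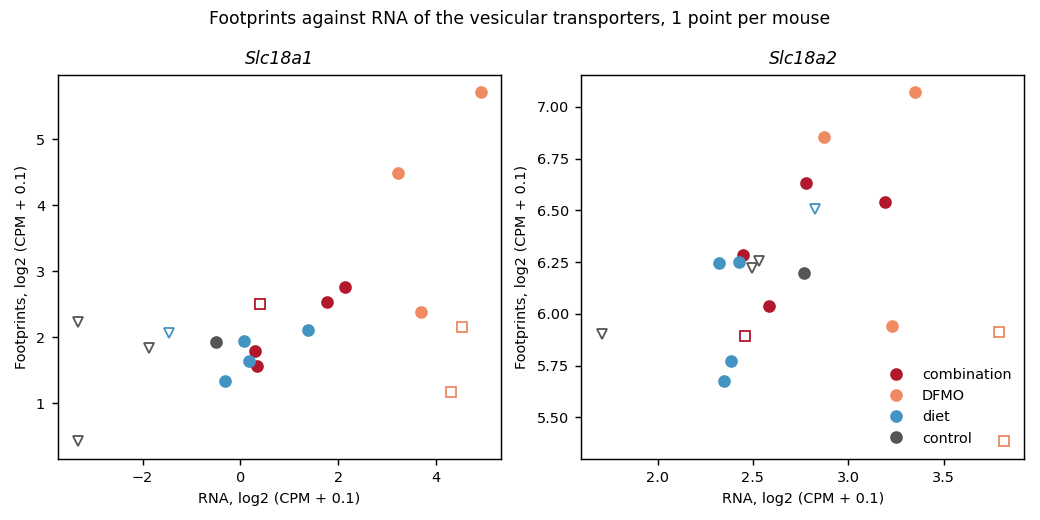
Footprints against RNA of Slc18a1 (left) and Slc18a2 (right), both as log2 (CPM + 0.1), 1 point per mouse with both assays, coloured by group. Open triangles are low-complexity RNA libraries and open squares RNA unlike its own footprints; for Slc18a1 the squares at the lower right are DFMO mice D135 and D5823.

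Slc6a2, which takes noradrenaline back into the cell, had 5.14, 6.37, 5.93, 4.98 and 11.6 CPM of footprints in combination mice PD5732, PD5736, PD5746, PD5805 and PD5825. DFMO mice D5747, D5802, D5806, D5823 and D135 had 2.86, 17.8, 5.90, 4.60 and 7.12 CPM. Diet libraries had 2.92 to 6.42 CPM, and control mice C5696, C5778, C5781, C5812 and C5840 had 3.66, 0.863, 1.66, 2.35 and 2.37 CPM, on 4 to 8 counts each. Every combination library and 4 of 5 DFMO libraries lay above every control. Footprints rose by 1.70 ± 0.46 in the combination (3.24-fold, edgeR adjusted p = 0.00797) and by 1.85 ± 0.46 under DFMO (adjusted p = 0.0095, edgeR), both calls kept in all 26 refits, thinned libraries included. Under the diet the change was 1.04 ± 0.49 (adjusted p = 0.43, edgeR). The difference between the combination and DFMO was -0.15, with a 95% interval of -0.88 to 0.58. RNA of Slc6a2 was low, at 0.301 to 2.89 CPM in the combination, 0.402 to 2.66 CPM under DFMO, 0.146 to 0.757 CPM under the diet and 0 to 0.435 CPM in control. It was called at 2.23 ± 0.71 in the combination and 2.05 ± 0.71 under DFMO against control (edgeR adjusted p = 0.0177 and 0.0274), and neither call held without the low-complexity libraries (1.71 and 1.56, adjusted p = 0.288 and 0.336). The first was also lost without C5778, and the second without C5696, C5778, C5781 or D5802. Against the diet the combination call of 1.94 ± 0.61 (adjusted p = 0.0312, edgeR) held without the low-complexity libraries (1.91, adjusted p = 0.0199) and not without the RNA unlike its own footprints (1.87, adjusted p = 0.116) nor without P5702, PD5732, P5785, PD5805 or PD5825.

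Maoa, the mitochondrial enzyme that degrades noradrenaline and serotonin, had 30.2 to 39.2 CPM of footprints in the combination, 39.7 to 53.0 CPM under DFMO, 29.2 to 52.8 CPM under the diet and 31.1 to 40.8 CPM in control. Combination libraries lay below all DFMO libraries and below 4 of the 5 diet libraries. Footprints fell by 0.42 ± 0.13 in the combination against the diet (edgeR adjusted p = 0.0185), lost without mouse PD5805 (adjusted p = 0.0513) and in limma. Against DFMO they differed by -0.41 ± 0.13 (adjusted p = 0.0804, edgeR), called in DESeq2 (-0.41, adjusted p = 0.0408) and in edgeR without P5702 (adjusted p = 0.0286) or PD5732 (adjusted p = 0.0484), and against control by -0.11 ± 0.14 (adjusted p = 0.563, edgeR). With all libraries edgeR called Maoa RNA in no comparison. In the combination against DFMO it was called at -0.69 without the low-complexity libraries (adjusted p = 0.000197), at -0.64 without both doubted sets (adjusted p = 0.0199) and at -0.69 without C5781 alone (adjusted p = 0.00366, edgeR), and at -0.65 in DESeq2 (adjusted p = 0.0249). Against control it was called lower in the combination without C5781 (-0.48, adjusted p = 0.0237, edgeR). Under DFMO it was called higher than control in DESeq2 (0.59, adjusted p = 0.0206), with RLE scaling (0.60, adjusted p = 0.0477) and in limma (1.54, adjusted p = 0.00676). Among the other listed genes of breakdown, which include the oxidase Maob, the aldehyde dehydrogenase Aldh2 and the reductases Akr1b3 and Akr1a1, 0 of 5 tested passed in footprints in any comparison in edgeR. At an unadjusted p under 0.05 there was 1 in the combination and 0 under DFMO against control. In RNA, Maob was higher than control under DFMO (1.46), and Akr1a1 was lower in the combination and under DFMO (-0.84 and -1.28). None of these 3 calls held without the low-complexity libraries (0.42, -0.11 and -0.54, adjusted p = 0.451, 0.792 and 0.143).

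For the difference of the combination from the sum of the single changes, none of the 9 genes was called in footprints in edgeR, beside 0.372% of all genes, although 4 had an unadjusted p under 0.05. Th had 1.22 ± 0.34 (adjusted p = 0.159, edgeR), Maoa -0.73 ± 0.19 (adjusted p = 0.105, edgeR), Gch1 0.69 ± 0.23 (adjusted p = 0.206, edgeR) and Ddc -0.51 ± 0.24 (adjusted p = 0.374, edgeR). DESeq2 called Th and Maoa (adjusted p = 0.0234 and 0.0291), and limma on log2 RPKM called Gch1 (adjusted p = 0.0472).

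Efficiency, meaning footprints relative to RNA, was lower for Slc18a1 under DFMO than in control, at -3.81 ± 1.01 (edgeR adjusted p = 0.00617). It was the only one of the 9 called there, beside 26.0% of 13988 genes (11.0% higher and 15.1% lower). In the fit with mouse as a block, which uses the 38 libraries of mice with both assays, Slc18a1 had -4.73 (adjusted p = 0.00442), and Dbh at -1.59 (adjusted p = 0.0234) and Ddc at -0.90 (adjusted p = 0.0285, all edgeR) were called as well. Leaving out the low-complexity libraries gave Slc18a1 -2.76 (adjusted p = 0.231, edgeR). Its ratio of footprint to RNA CPM was 0.110 and 0.189 in DFMO mice D135 and D5823, whose RNA was unlike its own footprints. In DFMO mice D5806, D5747 and D5802 it was 0.403, 1.76 and 2.42. Of the 2 control mice with RNA counts, C5812 had 6.06 and C5778, a low-complexity library with 2 counts, had 20.1. The median log2 change in efficiency over all genes was itself -0.28 under DFMO, -0.26 in the combination and -0.30 under the diet, and that of the 9 genes was -0.87, -0.29 and -0.14. In the combination none of the 9 was called in edgeR beside 22.0% of all genes, with 2 (Th at -1.09 and Slc18a1 at -2.52) at an unadjusted p under 0.05, both of which DESeq2 called. Under the diet none was called beside 4.26%, in edgeR or DESeq2, and none had an unadjusted p under 0.05. Combination against DFMO, combination against diet and the difference from the sum also gave none in edgeR or DESeq2, beside 0.0214%, 0.786% and 0.243% of all genes, with 1, 0 and 2 at an unadjusted p under 0.05.

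Across the 12 mice whose RNA was in neither doubted set, footprint to RNA ratios differed between the genes. Slc18a2 had the highest, a median of 12.2 (6.60 to 16.0), at the 94.5th percentile of 11847 genes tested in both assays, and Slc6a2 followed at 6.41 (3.61 to 24.7), at the 87.5th percentile. Slc18a1 had a median of 2.45, Ddc 1.50, Gch1 1.06, Maoa 1.05, Dbh 0.938, Th 0.83 and Pnmt 0.682. The range of Slc18a2 lay wholly above that of Th, and by their medians all 3 transporters stood above all 6 enzymes. The range of Slc18a1, 0.403 to 6.06, overlapped that of each of the 6 enzymes. Part of the Slc18a2 reads can belong to its antisense neighbour, as stated above.

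By Pearson r of log2 CPM over the 20 footprint libraries, among 7372 or 7373 genes with a mean of at least 10 CPM, among the 3 genes most like Th were Kcnma1 (0.92), a calcium-activated potassium channel, and Mib1 (0.86). For Ddc they were Zfp462 (0.90), Plekha5 (0.88) and Actg1 (0.86), for Gch1 Capn6 (0.82), Kcnk3 (0.79) and St18 (0.79), and for Dbh Epha5 (0.80), Cacna1d (0.71) and Zfp60 (0.70). For Slc18a1 they were Klf7 (0.88), Kif3a (0.86) and Atl1 (0.85), for Slc18a2 Etfdh, Gaa and Bach1 (0.81, 0.81 and 0.80), and for Slc6a2 Ndufa6, Celf4 and Ccdc50 (0.78, 0.77 and 0.75). For Maoa they included Eif4a1 and Idh1 (0.90 and 0.86) and for Pnmt Ecel1 and Cep68 (0.73 and 0.70). Within the pathway, Th footprints correlated with Ddc at -0.56, with Slc6a2 at 0.42 and with Gch1 at 0.37. Ddc correlated with Maoa at 0.52, and Gch1 with Slc18a1 at -0.59. These values describe libraries that share the 4 groups and their depth differences, and none was tested.

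Other cell types moved with the groups as well. Summed footprints of 6 macrophage markers were 368 to 482 CPM in the combination, 443 to 518 CPM under DFMO, 437 to 633 CPM under the diet and 557 to 843 CPM in control, with 5 and 4 of 6 lower than control in the combination and under DFMO, beside 15.5% and 8.84% of all genes. Those of 6 endothelial markers were 65.3 to 130 CPM in the combination, 35.4 to 113 CPM under DFMO, 103 to 170 CPM under the diet and 106 to 191 CPM in control, with 2 of 6 lower in each of the first 2 groups. All 5 erythroid markers tested were lower under DFMO than in control in footprints and none in the combination (0 at an unadjusted p under 0.05 in edgeR). In the combination 4 of the 5 were higher than under DFMO and 5 of 5 lower than under the diet, beside 2.27% higher and 14.0% lower over all genes. Of 3 Schwann markers tested, 3 were higher under DFMO and 1 in the combination, and of 4 cholinergic markers Vip alone was tested and was higher in both. Of 6 fibroblast markers, Lum was higher under DFMO and Pdgfra lower in the combination. Cd79a, the only B or T cell marker tested, was lower under DFMO, and neither of 2 kidney and liver markers passed in footprints in edgeR, with 0 at an unadjusted p under 0.05 in the combination and under DFMO against control. In RNA both were higher in the combination than in control (Alb 2.96 and Apoa1 2.80, adjusted p = 0.0143 and 0.0172) and than under DFMO (3.65 and 2.71, adjusted p = 0.0107 and 0.0338, edgeR). The part of these cells in the changes of the 9 genes was not tested.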

How the data were processed

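The authors deposited raw counts for 1 transcript per gene in 20 footprint and 19 RNA libraries, and RPKM values of the same libraries. Per the submitters' processing notes, cutadapt, Bowtie2 and HISAT2 were used with GRCm38; their versions, the strand setting and tool of counting, and its annotation release: not given in the sources used here. The length behind the deposited RPKM of the 9 genes equals the coding length of their GENCODE M21 transcripts. Every column was used (0 left over), no 2 libraries were identical (0 pairs), and 1977 of 20333 transcripts had no counts. Mouse C5840 has footprints alone, and its RNA was not analysed here.

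Counts were tested with edgeR 4.0.16 in R 4.3.3 (glmQLFit with robust set, glmQLFTest), after filterByExpr and TMM scaling, with the 4 groups of an assay fitted together. Efficiency was the assay-by-group interaction over 39 libraries. A gene was called at an adjusted p under 0.05 (Benjamini-Hochberg, over the whole assay); intervals are 95% (1.96 SE). CPM are the deposited counts scaled to TMM-adjusted totals; likeness used log2 CPM with a prior count of 2. Tests were tried on simulated data. The members, lists, markers, motifs and doubted libraries (limit of 14000 transcripts detected) were chosen with earlier results of these data known. All 9 members are named, as are up to 6 other pathway genes called in footprints of the combination against control with the smallest p and up to 3 genes per other list in the comparison described; the RNA calls of Maob and Akr1a1 were chosen after their values were seen, and so were markers beyond 3 of a list. Some genes that this rule names are not reported here.

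Footprints and RNA of a mouse come from the same extract, so they are paired by design. In the data, deviations from the group means in both assays correlated at -0.28 to 0.57 (median 0.09) over 19 mice, 9 of them above 0.1.

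Alternatives were no filter on low counts, RLE scaling, DESeq2 1.42.0, limma 3.58.1 on log2 (RPKM + 1), leaving out each mouse, thinning footprints to 2137838 counts, leaving out doubted RNA libraries, and mouse as a block in 38 libraries with the same libraries unblocked. Added after seeing the data were footprints without mice D5747 and D5802 and efficiency over genes tested in both assays. Python 3.11.15, pandas 2.3.3, numpy 2.4.6 and matplotlib 3.10.9 made tables and drawings. Depth was lowest in control footprints, which limits the precision of Pnmt, Slc18a1 and Slc6a2.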

Additional observations from a re-analysis of the deposited data

Results flagged for a closer look

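In 72 groups of 4 or 5 libraries of the 9 genes, 7 held a library far from the others by Dixon's criterion; chance gives about 1 in 20. Th footprints were 604 CPM in control mouse C5840, against 256 to 341 CPM in the other controls. Slc6a2 footprints were 11.6 CPM in combination mouse PD5825, against 4.98 to 6.37 CPM in the rest of its group, and 17.8 CPM in DFMO mouse D5802, against 2.86 to 7.12 CPM. Maoa footprints were 29.2 CPM in diet mouse P5702, against 46.6 to 52.8 CPM. RNA of diet mouse P5828, a low-complexity library, was highest of its group for Ddc (268 CPM, against 202 to 219), Pnmt (23.2 CPM, against 3.18 to 7.10) and Slc18a2 (6.99 CPM, against 4.90 to 5.28). By edgeR's test of the interaction with all libraries, the effect of DFMO differed between the diets in RNA for Ddc (-1.71) and Slc18a1 (-5.05). Both calls were lost without the RNA unlike its own footprints and without both doubted sets. That of Ddc was also lost without the low-complexity libraries.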

How the results depend on the processing

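The 34 calls of the report were refitted 888 times in all, and 720 kept direction and call. DESeq2 kept 34 of 34, RLE scaling 33, no filter 29 and limma 28, thinning kept 10 of 13 footprint calls, and leaving out 1 mouse kept 549 of 660. Without both sets of doubted RNA libraries 7 of 21 RNA and efficiency calls were kept, without the RNA unlike its own footprints 7, and without the low-complexity libraries 11. The causes were not tested, beyond fewer libraries in the last 3.

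In sign, 2 values turned. Gch1 RNA in the combination against control was 0.84 in limma and -0.05 in edgeR, where the all-gene medians were 0.68 and 0.31. Slc18a1 footprints under DFMO without mice D5747 and D5802 were close to 0 (-0.0109 ± 0.37).

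Numbers of the 9 genes called moved as follows. Without both sets, without the RNA unlike its own footprints and without the low-complexity libraries, RNA gave 1, 3 and 2 under DFMO (7 with all libraries), 1, 2 and 1 in the combination against control (4), and 0, 0 and 1 for the interaction (2). In the same fits 3.16%, 18.0% and 15.0%, 5.61%, 28.0% and 15.6%, and 0.736%, 0.0630% and 8.03% of all genes were called. Combination against DFMO in RNA gave 0 without the RNA unlike its own footprints and 6 in DESeq2, with Maoa and Slc18a2 added (4), beside 0.623% and 10.1% of all genes. Without the low-complexity libraries Maoa and Slc18a2 changed by -0.69 and -0.75 in this comparison. Combination against diet gave 1 without the RNA unlike its own footprints (3), beside 7.02% of all genes. Without both sets Ddc and Slc6a2 lost their calls against the diet. Without both sets, combination against DFMO in RNA kept its calls of Th, Ddc, Gch1 and Slc18a1 and added Maoa (-0.64). The diet in RNA gave 1 in DESeq2 (0), beside 21.2% of all genes. Under DFMO, Maoa was added in RNA in DESeq2, with RLE scaling and in limma, beside 50.7%, 42.9% and 59.3% of all genes. Pnmt was added there in limma. In RNA of the combination against control, limma added Gch1 and Slc18a2, beside 56.3%. DESeq2 added Dbh in RNA of combination against diet, beside 24.9%. Efficiency under DFMO gave 5 in DESeq2, 3 with RLE scaling, 6 in limma, 3 with the mouse block, and 0 without both sets or without the low-complexity libraries (1); the shares of all genes called were 35.2%, 31.0%, 46.6%, 24.5%, 4.0% and 7.74%, against 26.0%. Efficiency in the combination against control gave 2 in DESeq2, 1 with RLE scaling and 2 in limma (0), beside 33.2%, 28.8% and 38.2% of all genes. In limma efficiency gave 1 under the diet and 1 for the interaction (0), beside 14.6% and 2.74%. Footprints under DFMO gave 1 with no filter and 1 without mice D5747 and D5802 (3), beside 11.4% and 9.89% of all genes. Combination against diet gave 1 in limma (3), beside 28.5%. The interaction gave 2 in DESeq2 and 1 in limma (0), beside 1.05% and 0.504%. For combination against DFMO, DESeq2 added Maoa in footprints, beside 5.70% of all genes. The mouse block changed no call other than those of Dbh and Ddc under DFMO.

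Leaving out 1 mouse gave, in footprints, 1 to 3 under DFMO, 1 to 4 for combination against DFMO, 3 to 4 against control, 1 to 3 against diet, 0 to 0 under the diet and 0 to 1 for the interaction. In RNA it gave 5 to 7, 3 to 6, 2 to 4, 1 to 3, 0 to 1 and 2 to 3, and in efficiency 1 to 5, 0 to 0, 0 to 2, 0 to 0, 0 to 2 and 0 to 2, in the same order. Control mouse C5812 moved efficiency most: without it 5 genes were called under DFMO, 2 in the combination against control, 2 under the diet and 2 for the interaction. Its RNA is the only control library outside the low-complexity set, so these fits rest on low-complexity control RNA alone. Leaving out the low-complexity libraries instead lost the Slc18a1 efficiency call under DFMO. Shares of all genes called in fits without 1 mouse are not given here. Footprint calls under DFMO fell to 1 without mouse C5696, P5705, PD5736, D5747, C5778, C5781, P5785, D5802, C5812, P5828 or C5840, and combination against DFMO to 1 without mouse PD5746, D5802, PD5805, D5806 or PD5825. RNA calls of combination against diet fell to 1 without mouse P5702, PD5732, P5785, PD5805 or PD5825.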
